A study of Mus musculus with 24 samples.

Results

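Axon guidance ligands and receptors were compared between the brains of 2 wild-derived inbred mouse strains, CAST/EiJ and WSB/EiJ. Members were all protein-coding genes whose symbol begins with Sema3 to Sema7, Plxn, Epha or Ephb, Efna or Efnb, Unc5, Ntn or Ntng, or names Slit1 to Slit3 or Robo1 to Robo4. The rule found 69 of the 22040 protein-coding genes in the files, which list 53465 genes in all. They were 20 semaphorins, 9 plexins, 14 Eph receptors, 8 ephrins, 3 Slits, 4 Robos, 5 netrins, 5 members of the Unc5 family and Unc50. Unc50 shares only its name with the netrin receptors. Unc5cl was counted with the Unc5 family by its symbol, which does not make it a netrin receptor. Ntn3 was not analysed here.

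The series set the strains side by side because they differ in the volume of infarct left by occlusion of a cerebral artery. RNA was sequenced from samples labelled brain, from 6 CAST/EiJ animals (called CAST) and 6 WSB/EiJ animals (called WSB). The labels give strain, tissue and lane only, with no sex, age, brain region, treatment or batch, and no surgery is named for any animal. Each animal was run on 2 lanes, which were added together, and animals are named here by strain and animal number.

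Guidance molecules steer growing axons by attraction or repulsion, and many go on acting in the adult brain at synapses and in blood vessels. Secreted and membrane-bound semaphorins signal through plexins, class 3 semaphorins with neuropilins as binding partners. Ephrins and Eph receptors are both anchored in membranes and signal in both directions at points of cell contact, Slits repel through Robo receptors, and netrins attract through Dcc or repel with Unc5 receptors. All of these act on the actin and microtubule regulators that reshape the growth cone.

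Between 32982569 and 46513232 reads per animal were assigned to genes. Reads aligned to more than 1 place made up 15.6 to 16.1% of the total in CAST and 17.0 to 17.5% in WSB. This share separated the strains, and its part in any gene's result was not tested. Unaligned reads were listed at 0% in every animal, so a strain difference in reads lost at alignment cannot be seen here. Whether such a loss lowered the count of any gene in 1 strain was not tested. The sequencing indices also ran in blocks by strain, so index and strain cannot be told apart. CAST_142 stood apart from the other CAST animals: a summed level of 8 markers of cerebellar neurons, 3 of which (Cbln1, Pcp2 and Cdh15) were listed at 0 in all animals, was 1287 CPM (counts scaled to a common library total by edgeR with TMM factors) in CAST_142, at most 87.4 CPM in the other CAST animals and at most 65.1 CPM in WSB. Its 8 striatal neuron markers summed to 362 CPM, against 924 to 1904 CPM in the other CAST animals and 1095 to 1846 CPM in WSB. In WSB_100 the 5 olfactory bulb neuron markers summed to 249 CPM, against at most 47.5 CPM in the other WSB animals. The 6 general neuron markers, which check the tissue label, summed to 4917 to 6050 CPM in CAST and 5547 to 6913 CPM in WSB.

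Of the 69 members, 68 had enough reads for the test. Ntn5, a netrin, had 15 reads over all animals and was left out by the filter; only 1.46% of its gene body lies outside another gene, Sec1. A gene was called where edgeR's quasi-likelihood test gave a Benjamini-Hochberg adjusted p under 0.05 over all 18425 genes tested. By that rule 16 of the 68 members differed between strains, 7 higher and 9 lower in CAST, which is 23.5% of them, while 42.7% of all tested genes and 39.3% of the 14939 tested protein-coding genes were called. Higher calls took in 10.3% of the members against 19.8% of protein-coding genes, and lower calls 13.2% against 19.5%. Both shares lay below those of the background, which is a description with no test. By role, calls took in 57.1% of class 3, 33.3% of class 4 and 28.6% of class 5 to 7 semaphorins. They took in 11.1% of plexins, 35.7% of Eph receptors, 12.5% of ephrins and 25% of Robos. No Slit, tested netrin or Unc5 gene was called. Each role holds few genes, so its share beside 39.3% is likewise only a description. The median log2 difference (CAST over WSB) was 0.0011 over the members and 0.0032 over protein-coding genes, and the median size of the difference was 0.173 over the members and 0.179 over protein-coding genes.

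Differences were mostly small. Among the called members the size of the log2 difference ran from 0.17 to 0.76, and only Efna4 and Sema5b passed 1.5-fold, 2.94% of the members beside 14.8% of protein-coding genes. The lowest and highest animals of the strains did not overlap for 7 members, 10.3% beside 23.6% of protein-coding genes; these were Sema3g, Plxnb1 and Sema4c, higher in CAST, and Sema3a, Sema4a, Sema5b and Epha10, lower in CAST. Of the 52 members not called, 39 had a 95% interval that stayed within 1.5-fold in either direction, and 51 within 2-fold. The 13 whose interval reached beyond 1.5-fold were Sema3b, Sema4g, Epha1, Epha2, Epha3, Epha8, Ephb2, Ephb6, Efna1, Robo3, Ntn4, Ntng1 and Unc5b, and for these a difference of that size could not be told at this precision.

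**Figure D1:**
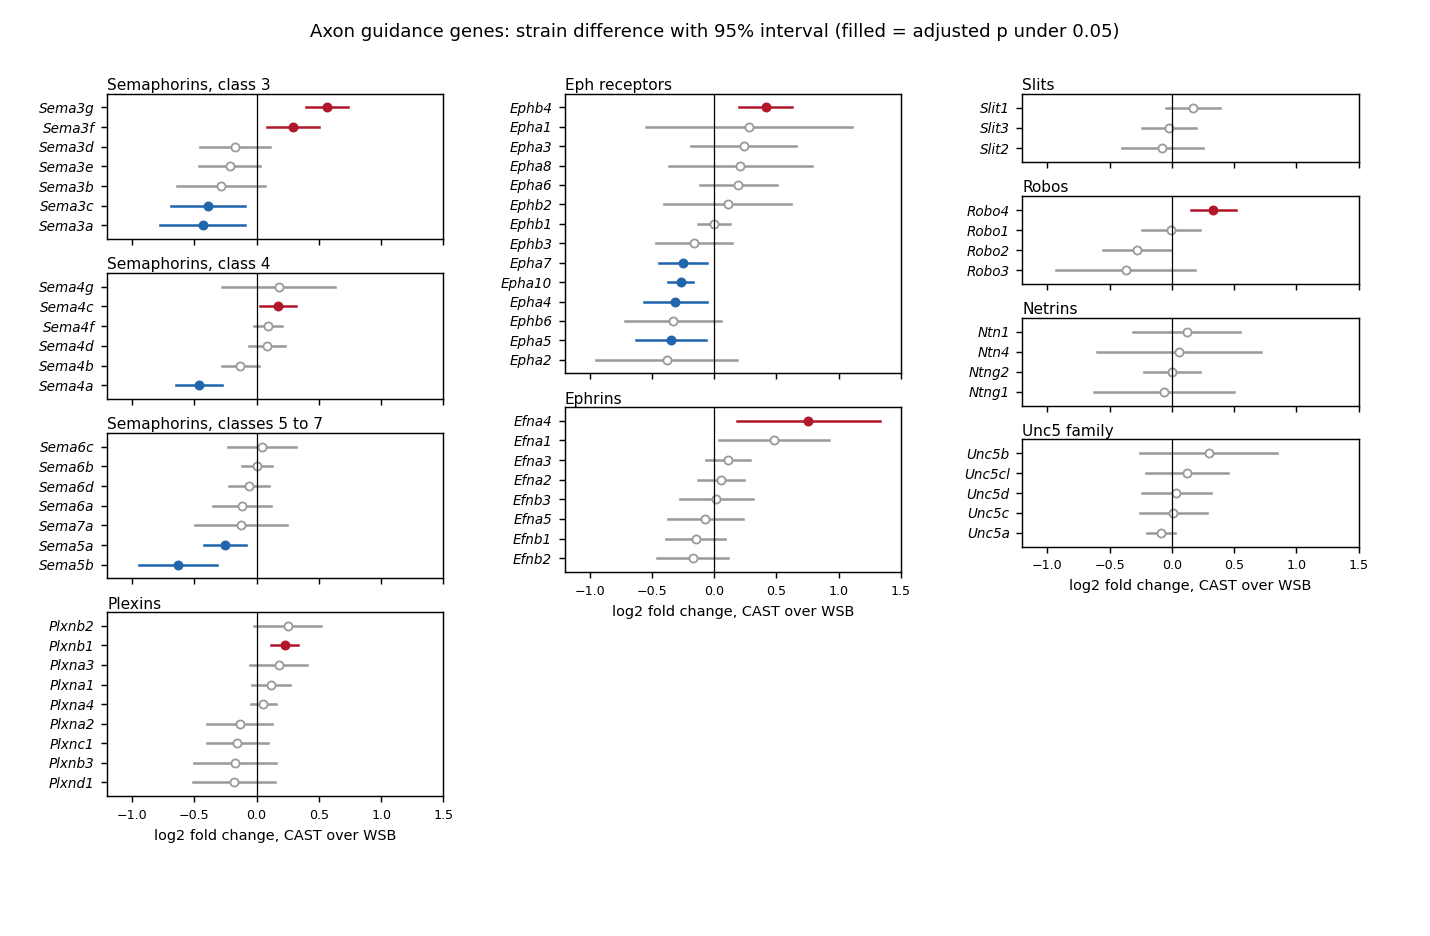
Log2 fold change of each tested guidance gene, CAST over WSB (horizontal axis), in panels by role, with its 95% interval; filled points are the 16 called members (red higher, blue lower in CAST) and open grey points the others. Unc50 is not drawn. Lower calls sit among the semaphorins and EphA receptors, and no Slit, netrin or Unc5 gene is filled.

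Of the 7 members higher in CAST, 3 (Sema3g, Ephb4 and Robo4) are known mainly from blood vessels: Sema3g is a secreted class 3 semaphorin made by endothelial cells, Ephb4 the receptor for ephrin-B2 on veins, and Robo4 an endothelial Robo. They were picked from the members called higher after their values were seen, so their shared direction is no result. Other members known from vessels as well as neurons were not called: log2 differences (CAST over WSB) were -0.17 for Efnb2, -0.18 for Plxnd1, -0.22 for Sema3e and 0.30 for Unc5b, and without CAST_142 -0.08, -0.07, -0.26 and -0.01 in that order. Kdr, an endothelial gene among the signalling partners, was called lower. Sema3g (ENSMUSG00000021904, GRCm38 chromosome 14, 31217860 to 31230352, plus strand) had 10.47 to 13.1 CPM in CAST, with a median of 11.1, and 6.68 to 8.45 CPM in WSB, with a median of 7.86. Every CAST animal was above every WSB animal. The log2 difference was 0.57 ± 0.076 (SE, adjusted p = 4e-05), the smallest p among the members. Ephb4 (ENSMUSG00000029710, chromosome 5, 137350109 to 137378669, plus strand) had 6.32 to 7.75 CPM in CAST, median 7.01, and 4.59 to 6.60 CPM in WSB, median 5.18. The ranges met at 1 end, where the highest WSB animal passed the lowest CAST animal. The difference was 0.41 ± 0.095 (adjusted p = 0.00316). Robo4 (ENSMUSG00000032125, chromosome 9, 37401897 to 37415115, plus strand) had 7.81 to 9.51 CPM in CAST, median 8.60, and 6.00 to 7.99 CPM in WSB, median 6.57, again overlapping at 1 end, with a difference of 0.33 ± 0.082 (adjusted p = 0.00473). All 3 stayed called under each of the 20 alternative analyses.

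Summed levels of endothelial markers overlapped between strains, and those of mural cell markers did not. The 6 endothelial markers summed to 190 to 222 CPM in CAST and 195 to 223 CPM in WSB, with 1 of 6 called higher (Pecam1) and 2 lower (Tek and Slco1a4); the 6 mural cell markers summed to 107 to 128 CPM in CAST and 197 to 220 CPM in WSB, with 4 of 6 called lower and none at 0. The mural cell markers did not move alike, and Rgs5 weighed most in their sum, at 41.6 to 52.3 CPM in CAST and 103 to 127 CPM in WSB. Log2 differences (CAST over WSB) were -1.36 for Rgs5, -0.88 for Vtn, -0.57 for Abcc9 and -0.18 for Pdgfrb. Those not called were Kcnj8 (-0.07) and Acta2 (0.34), and the median of the 6 was -0.37. The part of the endothelial and mural cell markers in the 3 results was not tested. In bulk tissue, fewer cells of a type and less RNA per cell cannot be told apart.

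The promoters of these 3 called genes are shown with the core motif of ETS factors, which bind many endothelial genes; the choice of genes and motif was made with the values known and tests nothing. The 250 bases before the RefSeq transcription start (GRCm38.p6) are printed 5′ to 3′ on the gene's strand, chr14:31217623-31217872 for Sema3g, chr5:137349859-137350108 for Ephb4 and chr9:37401722-37401971 for Robo4, all on the plus strand. Capitals mark the ETS core GGAA and its reverse complement TTCC.
Sema3g: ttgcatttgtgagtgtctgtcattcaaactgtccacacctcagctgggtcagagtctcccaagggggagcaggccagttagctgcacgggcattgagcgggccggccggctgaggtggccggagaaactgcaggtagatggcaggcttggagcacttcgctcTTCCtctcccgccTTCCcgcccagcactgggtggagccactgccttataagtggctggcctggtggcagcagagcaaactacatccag
Ephb4: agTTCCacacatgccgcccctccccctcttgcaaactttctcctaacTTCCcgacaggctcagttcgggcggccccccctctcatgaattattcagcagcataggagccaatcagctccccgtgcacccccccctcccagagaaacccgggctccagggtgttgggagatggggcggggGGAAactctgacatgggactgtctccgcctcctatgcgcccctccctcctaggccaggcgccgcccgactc
Robo4: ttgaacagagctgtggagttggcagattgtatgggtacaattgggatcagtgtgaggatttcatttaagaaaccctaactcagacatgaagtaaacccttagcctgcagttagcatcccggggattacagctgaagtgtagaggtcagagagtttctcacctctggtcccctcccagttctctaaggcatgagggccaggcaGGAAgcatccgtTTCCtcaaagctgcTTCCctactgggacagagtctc
The core occurs 2 times in the Sema3g window, 3 times in Ephb4 and 3 times in Robo4. These counts are near the median of 3 over 32851 RefSeq promoter windows of this length, of which 93.4% hold at least 1. The longer form CCGGAA, which contains the core and was also searched on both strands, occurs in none of the 3 windows, while 12% of all windows and 8 of the 76 windows of the 60 members in the table (10.5%) hold it. CG pairs number 8, 12 and 2 in Sema3g, Ephb4 and Robo4, around a median of 6 over all windows.

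**Figure D2:**
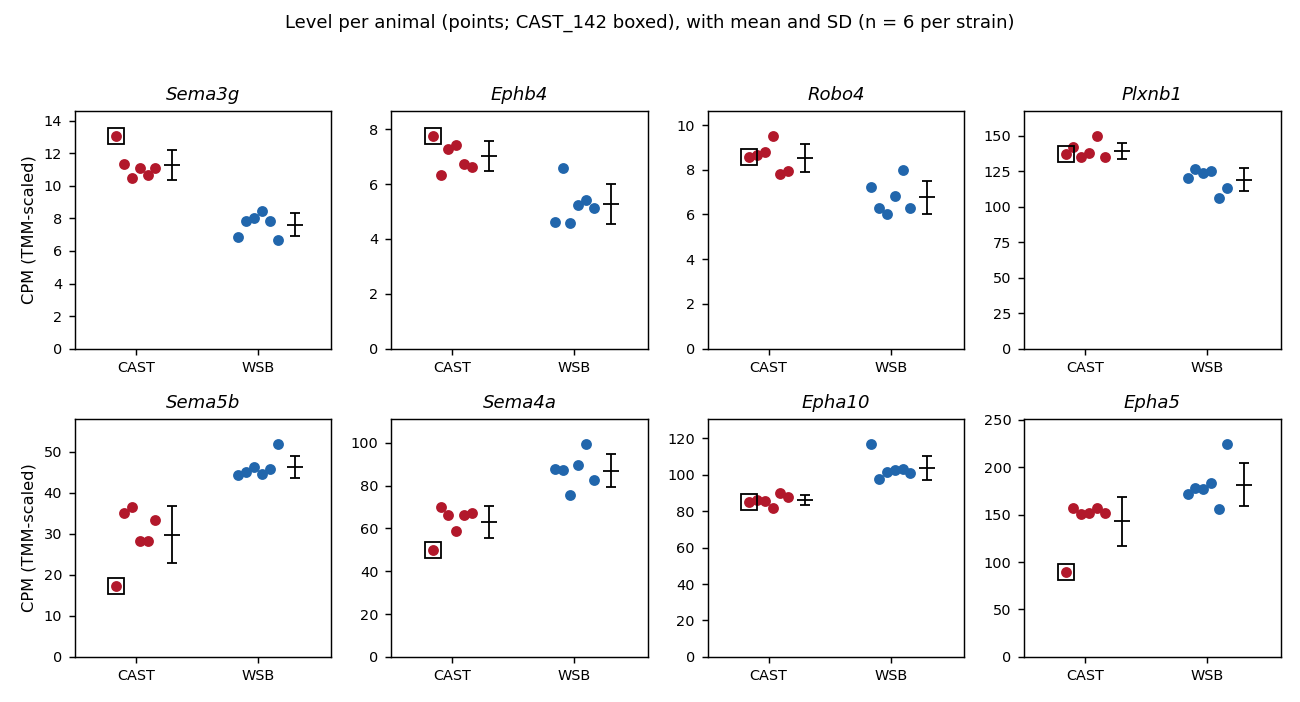
CPM after TMM scaling (vertical axis, from 0) in each animal for 8 called members, CAST left and WSB right, with the mean and SD of 6 animals beside the points; CAST_142 is boxed. Sema3g, Plxnb1, Sema5b, Sema4a and Epha10 have no overlap between strains, and CAST_142 is the lowest CAST animal for Sema5b, Sema4a and Epha5.

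Among the class 3 semaphorins, the secreted ligands, 2 of 7 were higher and 2 lower in CAST. Besides Sema3g, Sema3f was higher. Sema3f (chromosome 9, 107681500 to 107710475, minus strand), a repellent that acts through neuropilin-2, had 16.9 to 26.1 CPM in CAST, median 19.5, and 14.6 to 18.2 CPM in WSB, median 16.3. Its highest value was that of CAST_142, and the strains overlapped. The difference was 0.30 ± 0.094 (adjusted p = 0.0212), and 0.20 without CAST_142 (adjusted p = 0.0177). On lane 5 alone the adjusted p was 0.0661.

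Sema3a and Sema3c were lower in CAST. Sema3a (chromosome 5, 13125414 to 13602565, plus strand), the founding repellent of the family, which acts through neuropilin-1 and A-class plexins, had 12.3 to 25.4 CPM in CAST, median 24.9, and 25.5 to 33.0 CPM in WSB, median 30.1. The highest CAST animal, at 25.39 CPM, lay just under the lowest WSB animal, at 25.45 CPM. The difference was -0.43 ± 0.15 (adjusted p = 0.0355), and -0.28 (adjusted p = 0.02) without CAST_142 and WSB_100 together. The call was lost when CAST_202, WSB_135, WSB_147, WSB_169 or WSB_100 alone was left out, with adjusted p of 0.0766, 0.0558, 0.0613, 0.0603 and 0.0677 in that order. Sema3c (chromosome 5, 17574281 to 17730268, plus strand), which can attract or repel depending on the neuron, had 19.97 to 30.5 CPM in CAST, median 28.4, and 27.9 to 49.7 CPM in WSB, median 33.9. The difference was -0.39 ± 0.13 (adjusted p = 0.0312), -0.28 without WSB_100 (adjusted p = 0.0559) and -0.20 without CAST_142 and WSB_100 together (adjusted p = 0.0394). Without CAST_200 or WSB_169 its adjusted p was 0.0509 and 0.0572.

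Sema3e, the plexin-D1 ligand and the member of this class with most reads per kilobase of exon, was not called: it had 33.4 to 47.1 CPM in CAST, median 41.0, and 41.3 to 56.6 CPM in WSB, median 45.9, with a difference of -0.22 (adjusted p = 0.132). Sema3a, Sema3c, Sema3d and Sema3e all lie on chromosome 5, and all 4 estimates were below 0, from -0.43 to -0.17, with 2 of the 4 called; without CAST_142 and WSB_100 that of Sema3d was 0.00. Sema3b, with a median of 3.71 CPM in CAST and of 4.65 CPM in WSB, was not called (-0.29, adjusted p = 0.171). Without WSB_100 it was called lower (-0.38, adjusted p = 0.0427).

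Class 4 semaphorins are held in the membrane and bind mainly B-class plexins; 1 of 6 was higher and 1 lower. Sema4a (ENSMUSG00000028064, chromosome 3, 88435959 to 88461182, minus strand), best known from immune cells and the retina and the member of its class with most reads per kilobase of exon, had 49.8 to 69.8 CPM in CAST, median 66.5, and 75.4 to 99.2 CPM in WSB, median 87.6. No CAST animal reached the lowest WSB animal. The difference was -0.46 ± 0.084 (adjusted p = 0.00049), and it was called under all 20 alternatives, with values from -0.50 to -0.41. Sema4c (chromosome 1, 36548639 to 36558349, minus strand), a plexin-B2 ligand, had 17.8 to 22.8 CPM in CAST, median 18.2, and 15.5 to 17.5 CPM in WSB, median 16.8. The strains did not overlap, and the high end was CAST_142. Its difference of 0.17 ± 0.065 (adjusted p = 0.0475) was lost under 16 of 20 alternatives, adjusted p up to 0.1. These include both other test programs, and leaving out CAST_142 (0.11, adjusted p = 0.0617), CAST_200 (0.0615), CAST_201 (0.0666) or any of the 6 WSB animals (0.0567 to 0.1). The other 4 members, Sema4b, Sema4d, Sema4f and Sema4g, had differences from -0.13 to 0.18 and were not called; Sema4b was called lower without WSB_169 (-0.17, adjusted p = 0.0407), and the estimate of Sema4g was -0.06 without CAST_142.

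Of the class 5 to 7 semaphorins, 2 of 7 were lower, both of class 5, whose members carry thrombospondin repeats, and none was higher. Sema5b (ENSMUSG00000052133, chromosome 16, 35541145 to 35664732, plus strand) had 17.4 to 36.4 CPM in CAST, median 30.8, and 44.4 to 51.8 CPM in WSB, median 45.4. Every CAST animal was below every WSB animal, CAST_142 farthest. The difference was -0.63 ± 0.14 (adjusted p = 0.00236), a fold of 0.644, and the largest decrease among the members. Without CAST_142 it was -0.52 (adjusted p = 5.54e-05), and without CAST_142 and WSB_100 -0.49 (adjusted p = 0.0001). Sema5a (chromosome 15, 32244810 to 32696341, plus strand), its close relative and like it able to repel, had 70.7 to 93.8 CPM in CAST, median 79.6, and 84.1 to 113 CPM in WSB, median 94.9. The ranges overlapped, and the difference was -0.25 ± 0.076 (adjusted p = 0.016). Both class 5 members stayed called under all 20 alternatives.

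Sema7a, which is anchored by a lipid and binds plexin-C1, had the highest level per kilobase of exon of any member, 49.8 CPM per kilobase in CAST and 54.2 CPM per kilobase in WSB. It ranged from 113 to 235 CPM in CAST, median 158, and from 141.8 to 243 CPM in WSB, median 166, with a difference of -0.12 (adjusted p = 0.581). The highest CAST value was that of CAST_142, and without it the difference was -0.26 (adjusted p = 0.178). Per kilobase of gene body it ranked 4, behind Efnb3, Sema6b and Ephb6. The 4 class 6 members, which can act both as ligands and as receptors, had differences from -0.11 to 0.05, and from -0.17 to 0.04 without CAST_142, and none was called.

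Plexins, the receptors for these ligands, differed in 1 of 9 members. Plxnb1 (ENSMUSG00000053646, chromosome 9, 109095389 to 109119917, plus strand), the receptor for Sema4d, had 134.98 to 149.85 CPM in CAST, median 137.6, and 106 to 127 CPM in WSB, median 122. All CAST animals were above all WSB animals. The difference was 0.23 ± 0.049 (adjusted p = 0.00199), called under all 20 alternatives. Its ligand Sema4d was not called, with a median of 64.1 CPM in CAST and 61.2 CPM in WSB. The most abundant plexin per kilobase of exon, Plxna4, a signalling partner for Sema3a and class 6 semaphorins, had 233 to 268 CPM in CAST, median 240.1, and 223 to 252 CPM in WSB, median 233, with a difference of 0.05 (adjusted p = 0.378). The remaining 7 plexins had differences from -0.18 for Plxnd1 to 0.25 for Plxnb2, and none was called. Without CAST_142 these 2 genes had -0.07 and 0.10; Plxnb3 was called lower when CAST_142 and WSB_100 were both left out (-0.35, adjusted p = 0.0209).

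Eph receptors differed in 5 of 14 members (35.7%, beside 39.3% of protein-coding genes). Of 9 EphA receptors, 4 were lower (44.4%, beside 19.5%) and none higher. Of 5 EphB receptors 1, Ephb4, was higher (20%, beside 19.8%). Both classes are small parts of 1 role, and their shares are only a description with no test. Epha10 (ENSMUSG00000028876, chromosome 4, 124880899 to 124917800, plus strand), a receptor whose kinase domain is inactive, had 81.5 to 90.1 CPM in CAST, median 85.9, and 97.4 to 117 CPM in WSB, median 102. No animal of CAST reached the WSB range. The difference was -0.27 ± 0.044 (adjusted p = 0.000249), called under all 20 alternatives, from -0.29 to -0.23. The other 3 called EphA receptors, Epha4, Epha5 and Epha7, are ephrin-A receptors of forebrain neurons, and their calls were less stable.

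Epha4 (chromosome 1, 77367185 to 77515088, minus strand), which also binds B-class ephrins, had 162 to 275 CPM in CAST, median 224, and 251 to 339.5 CPM in WSB, median 257, with overlap. The difference was -0.31 ± 0.11 (adjusted p = 0.0393), and -0.24 (adjusted p = 0.043) without CAST_142, the lowest CAST animal. Leaving out CAST_170, CAST_200, CAST_202, CAST_203, WSB_120 or WSB_169 ended the call, with adjusted p of 0.0644, 0.0625, 0.0674, 0.0543, 0.0859 and 0.0787 in that order. Epha5 (chromosome 5, 84054761 to 84417382, minus strand) had 89.9 to 157 CPM in CAST, median 151, and 156 to 224 CPM in WSB, median 177. CAST_142 was far below the next CAST animal, at 150.4 CPM, and WSB_100 was the highest of its strain. The difference was -0.35 ± 0.13 (adjusted p = 0.0408) in all animals and -0.18 (adjusted p = 0.00458) without CAST_142 and WSB_100; it was -0.28 (adjusted p = 0.0848) without WSB_100 alone. The call was also lost without CAST_200, CAST_203, WSB_135, WSB_138 or WSB_147, with adjusted p from 0.0539 to 0.0646.

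Epha7 (chromosome 4, 28813131 to 28967499, plus strand) had 83.0 to 126 CPM in CAST, median 109, and 115 to 139.5 CPM in WSB, median 125, and overlapped. Its difference was -0.25 ± 0.087 (adjusted p = 0.0312), lost without CAST_202 (0.0709), WSB_120 (0.0651), WSB_147 (0.0512) or WSB_169 (0.0601). Without CAST_142, the lowest CAST animal, it was -0.20 (adjusted p = 0.0299). Ephb6, another receptor with an inactive kinase and the most abundant Eph receptor per kilobase of exon, had 71.8 to 122 CPM in CAST, median 119, and 89.1 to 186 CPM in WSB, median 129. Its difference of -0.33 was not called (adjusted p = 0.147). Epha3, with medians of 22.1 CPM in CAST and 16.5 CPM in WSB, had a difference of 0.24 over all animals (adjusted p = 0.346) and was called higher without WSB_100 (0.45, adjusted p = 0.0124).

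Of the ephrins, the ligands of the Eph receptors, 1 of 5 of the lipid-anchored A class was higher, and of the 3 transmembrane B-class ephrins none was called by edgeR, DESeq2 or limma-voom (0 of 3 at an unadjusted p under 0.05). Efna4 (ENSMUSG00000028040, chromosome 3, 89333390 to 89338028, minus strand) was higher at a very low level, with 110 reads over all CAST animals and 61 over all WSB animals. It had 0.261 to 0.589 CPM in CAST, median 0.451, and 0.127 to 0.307 CPM in WSB, median 0.294, and the ranges overlapped. The difference was 0.76 ± 0.26 (adjusted p = 0.0309), and the call was lost without CAST_170, CAST_201, CAST_202, CAST_203, WSB_120 or WSB_138, with adjusted p from 0.0511 to 0.0685. Of the 32-base words sampled from its transcripts, 8.28% also occur in transcripts of other genes.

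Efna1, its neighbour on chromosome 3, had 3.18 to 7.73 CPM in CAST, median 4.03, and 2.66 to 3.67 CPM in WSB, median 3.39. CAST_142 held its highest value. The difference of 0.48 was not called (adjusted p = 0.0659), but DESeq2, lane 6 alone (0.56, adjusted p = 0.0345) and the fit without CAST_200 (0.57, adjusted p = 0.0363) did call it; without CAST_142 the difference was 0.26. Efna3, which lies between them, had a difference of 0.11 (adjusted p = 0.277), and was called higher without CAST_142 (0.18, adjusted p = 0.00787). Of the sampled 32-base words of Efna3, 18.3% also occur in transcripts of other genes, and 61.7% of its gene body lies outside the overlapping gene Gm15998. All 3 estimates at this cluster, which spans 66.3 kilobases, were above 0. Efnb3, the most abundant ephrin per kilobase of exon, had 104 to 176 CPM in CAST, median 135.3, and 107 to 163 CPM in WSB, median 132, with a difference of 0.02 (adjusted p = 0.927). Efnb2, the ligand of Ephb4, had a median of 86.5 CPM in CAST, against 91.4 CPM in WSB, and was not called (-0.17, adjusted p = 0.3, and -0.08 without CAST_142).

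Robo receptors differed in 1 of 4 members, Robo4, described above with its promoter. Robo2, the most abundant of them per kilobase of exon and a receptor for Slits on neurons, had 114 to 207 CPM in CAST, median 192, and 202.1 to 241 CPM in WSB, median 209. The strains overlapped, and CAST_142 was lowest. Its difference of -0.28 was not called (adjusted p = 0.0831; unadjusted p under 0.05), and was -0.15 without CAST_142 and WSB_100. Robo3, which ends 553 bases from Robo4 on chromosome 9 and in development lets axons cross the midline, was not called either: the median was 36.7 CPM in CAST and 39.6 CPM in WSB, its estimate of -0.37 opposite in sign to that of Robo4. Robo1 had a difference of -0.01 (adjusted p = 0.971).

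No Slit, tested netrin or Unc5 gene was called by edgeR (0 of 3, 0 of 4 and 0 of 5), nor was any at an unadjusted p under 0.05, and DESeq2 and limma-voom called 0 in each. Slit3, the most abundant Slit per kilobase of exon, had 107 to 163 CPM in CAST, median 134, and 121 to 153 CPM in WSB, median 136, with a difference of -0.02 and a 95% interval from -0.24 to 0.19. Slit1 had a difference of 0.17 over all animals (adjusted p = 0.182) and was called higher without CAST_142 (0.23, adjusted p = 0.042). Unc5a, a receptor that turns the netrin response to repulsion, had 89.7 to 106 CPM in CAST, median 102, and 98.9 to 115 CPM in WSB, median 105, with a difference of -0.09 and an interval from -0.20 to 0.02. Ntng2, a netrin relative anchored by a lipid at synapses, had 42.5 to 67.7 CPM in CAST, median 61.4, and 51.5 to 63.9 CPM in WSB, median 59.99. Its difference was 0.00 with an interval from -0.22 to 0.22. Unc50, which is no guidance receptor, had medians of 36.0 CPM in CAST and 36.2 CPM in WSB.

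CAST_142 also set the sign of several estimates among the members not called. Ntn4, a netrin of basement membranes, had 42.2 CPM in CAST_142 and 14.2 to 16.3 CPM in the other CAST animals, and its log2 difference was 0.06 with CAST_142 and -0.32 without it (adjusted p = 0.212). Unc5b, a netrin receptor found on vessels as well as neurons, had 83.1 CPM in CAST_142 and 32.03 to 38.0 CPM in the others, and its difference was 0.30 with CAST_142 and -0.01 without it. The estimates of Ntn1, Epha1, Epha8, Ephb1, Ephb2, Sema4g, Sema6c, Unc5c and Unc50 likewise turned from above to below 0 without CAST_142, 11 members in all. Those of Slit2, Slit3 and Robo1 turned from below to above 0, and none of the 14 was called with or without that animal. Over the 52 members not called, the size of the estimate moved by over 1.5 times for 29 when CAST_142 was left out. Slit2, a ligand for Robo1 and Robo2, had 38.2 CPM in CAST_142 and 66.8 to 77.1 CPM in the others. CAST_142 was the highest CAST animal for 24 and the lowest for 32 of the 68 members. These counts were not made over all genes, so they are not read as particular to guidance genes. Leaving out both CAST_142 and WSB_100 gave 19 called members, 8 higher and 11 lower, 15 of them among the 16 called in all animals. Calls over all genes rose as well, to 8624 of 18511 tested from 7866 of 18425.

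**Figure D3:**
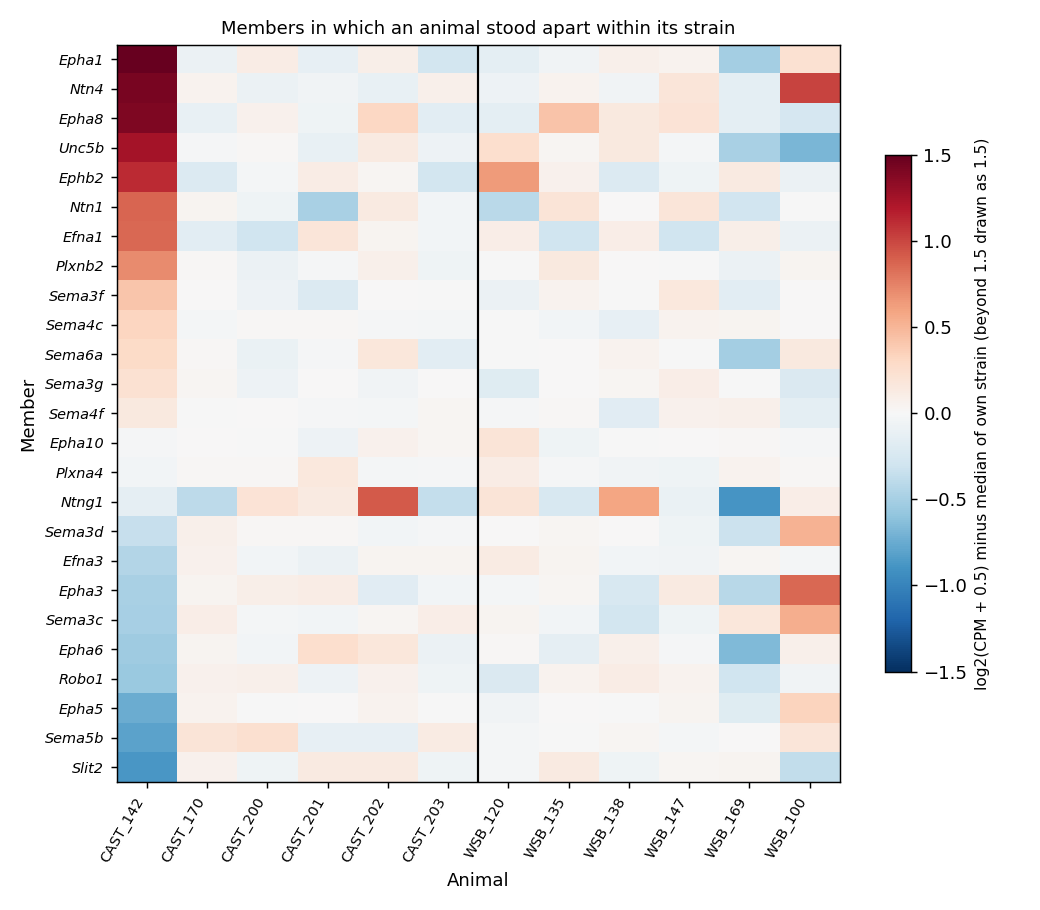
Log2(CPM + 0.5) minus the median of the animal's own strain (colour) for the 25 members in which some animal stood apart from its strain (rows), by animal (columns, CAST left of the line and WSB right). CAST_142 is red at the top and blue at the bottom, the other CAST animals are mostly pale, and WSB_100 is red for Ntn4, Epha3, Sema3c and Sema3d.

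The other genes of these pathways were taken from a list of 102 co-receptors, further cues and signalling partners, of which 97 were tested and 25 called, 12 higher and 13 lower in CAST (25.8%, beside 39.3% of protein-coding genes). Rgmb, Flrt1, Flrt3, Lrrc4 and Itsn1 were listed at 0 in all animals. For Flrt1, Flrt3 and Lrrc4, 0% of the gene body lies outside other genes (Macrod1, Macrod2, and Snd1 with Gm37940, in that order). Rgmb and Itsn1 overlap no other gene. A listing at 0 is therefore not read as absence from the brain, and its cause was not tested. The co-receptors Nrp1 and Nrp2 of class 3 semaphorins and the netrin receptors Dcc and Neo1 were not called, with differences from -0.14 to -0.02. Dcc, at -0.14, had 27.6 CPM in CAST_142 and 71.2 to 78.8 CPM in the other CAST animals, and its difference was 0.02 without CAST_142. In the list of further cues, 6 of 13 genes were higher (46.2%) and 2 lower (15.4%). Not all genes of this list are cues: it also holds the receptor Ryk and the surface proteins Gpc1, Sdc2 and Sdc3. Those called higher were Rgma, Sdc2, Sdc3, Ryk, Vegfa and Cxcl12. The Eph signalling partners had 2 of 16 lower (12.5%) and none higher. The Slit and netrin partners had 1 of 19 in each direction (5.26%). Beside these, 19.8% of protein-coding genes were called higher and 19.5% lower, and the shares were not compared by a test.

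Ryk, a receptor for Wnt guidance cues, was higher, with 51.5 to 65.3 CPM in CAST, median 56.4, and 29.9 to 40.6 CPM in WSB, median 33.9. The strains were well apart, and the difference was 0.72 ± 0.077 (adjusted p = 4.92e-06). Cxcl12, a chemokine that also guides axons and neurons, had 101 to 144 CPM in CAST, median 118, and 57.1 to 86.0 CPM in WSB, median 74.4 (0.72, adjusted p = 0.000174). Plxdc1, a plexin-domain protein known from tumour vessels, had 35.8 to 55.7 CPM in CAST, median 45.2, and 20.9 to 31.1 CPM in WSB, median 25.2 (0.81, adjusted p = 6.6e-05). Mical1, an oxidase that takes actin filaments apart below plexins, had medians of 13.6 CPM in CAST and 9.12 CPM in WSB (0.57, adjusted p = 1.75e-05); 13.3% of its sampled 32-base words occur in transcripts of other genes. None of these 4 overlapped between strains.

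Cfl1, the actin-severing protein cofilin, had the largest decrease, with 90.5 to 109 CPM in CAST, median 97.0, and 209.5 to 222 CPM in WSB, median 211. The difference was -1.12 ± 0.050 (adjusted p = 7.51e-10). Cfl1 is an uncertain case: 22.5% of its sampled 32-base words occur in transcripts of other genes, and only 5.2% of its exon bases lie outside the overlapping gene Snx32. Of the same exon bases, 83.5% lie outside the exons of Snx32. Which share matters depends on counting settings that were not given. Dpysl2, a microtubule regulator first found as a mediator of Sema3a, had 231 to 275 CPM in CAST, median 247, and 316 to 360.1 CPM in WSB, median 345 (-0.45, adjusted p = 4.52e-06). Mical3, a relative of Mical1, had medians of 189 CPM in CAST and 236 CPM in WSB (-0.33, adjusted p = 6.33e-05), and Kdr, the VEGF receptor of endothelial cells, 14.1 CPM in CAST and 19.5 CPM in WSB (-0.45, adjusted p = 0.00013). Each of these 4 was below WSB in every CAST animal, and all 8 named partners were called under all 20 alternatives.

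**Figure D4:**
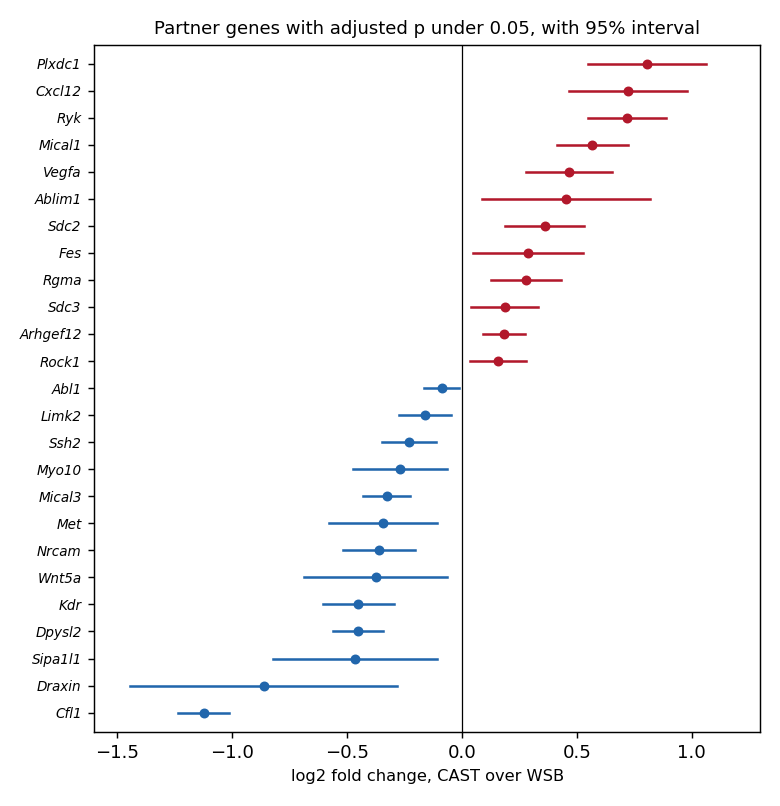
Log2 fold change, CAST over WSB (horizontal axis), with its 95% interval for the 25 called co-receptors, further cues and signalling partners (rows; red higher, blue lower in CAST). Plxdc1, Cxcl12 and Ryk lie farthest right, and Cfl1 lies farthest left.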

How the data were processed

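Brain RNA of 12 mice was sequenced on 2 lanes each, giving 24 tables of whole-number read counts per gene. The authors deposited these counts without normalization; cutadapt, HTSeq, DESeq2 and TopHat2 2.1.1 are the programs listed, with no role or order, in the submitters' processing notes. Their genome build, annotation and strand setting were not given in the sources used here. Of the 53465 gene IDs, 53360 matched GENCODE M21 (GRCm38), the source of symbols and coordinates. Rows for reads in no gene, ambiguous reads (11.1 to 16.5% of the total) and multiply aligned reads stayed out of library sizes.

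The lanes were summed per animal. Genes were filtered by filterByExpr with strain as the group, scaled by TMM and tested with edgeR 4.0.16 (quasi-likelihood, robust, R 4.3.3), with Benjamini-Hochberg adjustment over 18425 genes. SE is the log2 fold change divided by the square root of F, and 95% intervals use 10 residual degrees of freedom. The fitting code was tested on simulated data. The animals share no numbers across strains, and no label says how they were housed or processed. The p-values weigh the strain difference against the spread between these animals. Housing or processing that differed with strain cannot be told apart from strain.

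Named genes were the called members with at least a 1.5-fold change, the 3 with the smallest p and the most abundant per kilobase of exon in each role, those not tested, and the 4 partners with the smallest p in each direction; others are named as called members, as exceptions, or as stated. The members and lists were chosen with earlier results of these data known. Alternatives were 2 other scalings (DESeq2 size factors, upper quartile), no filter, DESeq2 1.42.0 and limma-voom (limma 3.58.1), each lane alone, leaving out each animal, and leaving out CAST_142 and WSB_100. Reads shared between similar genes were checked with 32-base words, every 10 bases of each transcript; 63 of 69 members share under 5%.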

Additional observations from a re-analysis of the deposited data

Results flagged for a closer look

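Within each strain of 6 animals, the gap of the highest or lowest animal to its nearest neighbour was compared with the range of the strain. Of 136 such groups (68 members in 2 strains), 28 passed Dixon's 95% limit, where chance gives about 1 in 20. CAST_142 accounted for 18 of the 28. Genes outside the members were not searched in this way, so these flags are not read as particular to guidance genes. The CPM values of CAST_142 stood above the other CAST animals for 12 members: Sema3f (26.1), Sema3g (13.1), Sema4c (22.8), Sema4f (67.5), Plxnb2 (120.6), Epha1 (5.26), Epha8 (39.5), Ephb2 (89.2), Efna1 (7.73), Ntn1 (53.5), Ntn4 (42.2) and Unc5b (83.1). It stood below them for 6: Sema3c (19.97), Sema3d (7.82), Epha5 (89.9), Efna3 (17.96), Slit2 (38.2) and Robo1 (64.5). Of these 18 members, Sema3f, Sema3g, Sema4c, Sema3c and Epha5 are among those called.

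The remaining CAST flags were Plxna4, highest in CAST_201 at 268 CPM, and Ntng1, highest in CAST_202 at 132 CPM. In WSB, WSB_100 was far highest for Sema3d (15.5 CPM), Sema5b (51.8 CPM), Epha3 (30.3 CPM) and Ntn4 (33.1 CPM), WSB_120 highest for Epha10 (117 CPM) and Ephb2 (63.6 CPM), and WSB_169 lowest for Sema6a (40.8 CPM) and Epha6 (60.7 CPM). The levels of regional neuron markers in CAST_142 and WSB_100 are given with the library values above; their part in these results was not tested.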

How the results depend on the processing

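Lane 5 alone called 4 members higher and 5 lower in CAST, and lane 6 alone 6 and 9, against 7 and 9 with both lanes. Over all genes, 6617 of 17007 were called on lane 5 and 6567 of 16952 on lane 6, against 7866 of 18425. Leaving out 1 animal at a time gave 5 to 8 members higher and 6 to 9 lower, and 9 to 14 partner genes in each direction against 12 and 13. Calls over all genes then ran from 7313 without CAST_200 to 8726 without CAST_142. None of the 41 called members and partner genes reversed its direction under the 20 alternatives. Epha10, Ephb4, Plxnb1, Robo4, Sema3g, Sema4a, Sema5a and Sema5b were called under all of them; Sema3f was lost under 1, Sema3c under 4, Epha7 under 5, Efna4 under 6 of the 18 that gave it a value, Sema3a and Epha5 under 7, Epha4 under 8 and Sema4c under 16. The cause was not tested. Scaling moved the median log2 difference of all genes by less than 0.1. No paired analysis was possible because the animals of the 2 strains share no replicate numbers. Depth limits Efna4 and Ntn5, the members with fewest reads.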
